A study of Mus musculus with 24 samples.

Results

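NRF2 antioxidant response genes are the genes of the KEAP1-NRF2 pathway and a set of its best known targets. The 10 genes were taken by symbol: Nfe2l2, Keap1, Nqo1, Hmox1, Gclc, Gclm, Srxn1, Txnrd1, Txn1 and Gpx2. All 10 were found once in each of the 3 tables of expression values, which hold 31053 genes for primary hepatocytes (Pri-Hep) and hepatocyte organoids (Hep-Orgs), 25876 genes for cholangiocyte organoids (Cho-Orgs) and 20729 genes for picked organoids sequenced by Smart-Seq. All levels are in FPKM, the authors' fragment counts scaled for gene length and library size.

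The cells came from the livers of adult wild-type BALB/c mice. Pri-Hep were purified on Percoll and depleted of EpCAM+ cells, and Hep-Orgs were grown from them and sequenced at passages P1, P5 and P10 in a hepatocyte medium with the Notch pathway inhibitor DAPT and the glucocorticoid dexamethasone. Cho-Orgs were grown from EpCAM+ cells and sequenced at P0, P5 and P10 in a cholangiocyte medium with forskolin, Noggin and Wnt3a. Each of these 7 groups holds 3 libraries. The Smart-Seq organoids were Hep-Orgs picked at P0 by their shape (grape-like, round-like or intermediate), with 1 library for each shape. They had grown in the hepatocyte medium as it was before DAPT and dexamethasone were added to it. The hepatocyte medium with DAPT and dexamethasone and the cholangiocyte medium both contained N-acetylcysteine, an antioxidant and precursor of cysteine, and the composition of the earlier hepatocyte medium is not given in the sources used here. The study describes the replicates in one place as 3 mice and in another as independent cell cultures, and p-values measure the spread between these libraries only.

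NRF2, the product of Nfe2l2, is a transcription factor that is made continuously and destroyed continuously. KEAP1 holds it in the cytoplasm and hands it to a ubiquitin ligase, and oxidants or electrophiles that modify KEAP1 let NRF2 reach the nucleus, where it pairs with a small MAF protein on antioxidant response elements. Its activity is therefore set largely by protein stability, and the transcript of Nfe2l2 does not measure it. In the liver, its targets make glutathione, reduce thioredoxin, detoxify quinones and break down haem.

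The antioxidant response element has the core TGACNNNGC, where N is any base. This core was searched on both strands in promoter windows of 300 bases, from 250 bases before to 50 bases after the annotated start (RefSeq, GRCm38.p6), and no other motif was searched. Of all 32851 windows, 4071 (12.4%) held a match, as did 3781 (14%) of the 27025 genes with a window. Of the members, 8 had a window, and 4 of them held a match: Nfe2l2, Gclm, Txnrd1 and Srxn1. Txnrd1 has 3 windows, and 1 of them held it. That window belongs to an annotated start inside the gene, and the window at the 5′ end of the gene held no match. No match was found in the windows of Txn1, Nqo1, Keap1 and Gpx2, which says only that these letters are not in those 300 bases. Hmox1 and Gclc had no window. The match of Srxn1 lies 28 to 36 bases into the transcript. The other 3 lie upstream of the start and are shown. Each is read 5′ to 3′ on the strand of the gene with 10 bases on each side, and the capitals mark the match. The coordinates are those of the printed 29 bases, and the distances upstream are those of the match alone. The match of Nfe2l2 is on the gene's own strand at chr2:75704885-75704913 (minus strand), 232 to 240 bases upstream. Those of Gclm at chr3:122245413-122245441 (plus strand, 126 to 134 bases upstream) and Txnrd1 at chr10:82859104-82859132 (plus strand, 84 to 92 bases upstream) are on the opposite strand, so the core appears as GCNNNGTCA.
Nfe2l2: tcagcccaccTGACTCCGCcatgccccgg
Gclm: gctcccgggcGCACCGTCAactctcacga
Txnrd1: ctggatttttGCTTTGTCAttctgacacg

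Before the values, the libraries were set against their labels. The Pri-Hep and Hep-Orgs libraries held 14068906 to 27160365 fragments, and the depth of the Cho-Orgs and Smart-Seq libraries was estimated at about 37560000 to 40520000. In all 12 libraries of the first table, including Pri-Hep, the 9 cholangiocyte markers summed to 3850 to 4068 FPKM and the 11 hepatocyte markers to 609 to 671 FPKM, of which Alb gave 106 to 128 FPKM. Of the 11 hepatocyte markers, Cyp2e1, Tat and Apoa2 were under 1 FPKM in all 12 libraries, and the other 8 reached 1 FPKM in at least 1 library of every group, with Ttr the most abundant at 409 to 454 FPKM. Of the 9 cholangiocyte markers, Cftr was under 1 FPKM in all 12 libraries, and the other 8 reached 1 FPKM in at least 1 library of every group. In every library, those labelled Pri-Hep included, the cholangiocyte markers thus summed to more than the hepatocyte markers. Pairs of libraries from different groups differed about as little as replicates did. The chi-square per degree of freedom, which is 1 for counting noise alone, was 1.93 to 3.14 for the 12 pairs within a group and 1.82 to 4.59 for the 54 pairs between groups. Of the 11 macrophage markers, 9 were under 1 FPKM in every group of this table. In Cho-Orgs, the hepatocyte markers summed to 7240 to 8166 FPKM at P0, to 206 to 253 FPKM at P5 and to 78.0 to 83.5 FPKM at P10. In bulk samples, fewer cells of a type and less RNA per cell cannot be told apart.

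In Cho-Orgs, 6 of the 10 genes rose from P0 to P5 and none fell. The targets that rose were Nqo1, Gpx2, Gclc, Gclm, Txnrd1 and Srxn1, by 4.72-fold for Nqo1 and 1.39-fold for Srxn1 at the ends of the range of mean FPKM. Nfe2l2, Keap1, Hmox1 and Txn1 did not pass the test. The test was limma on log2(FPKM + 1) with Benjamini-Hochberg adjustment over the 11593 genes tested and a threshold of 0.05, and all fold changes below are on this scale unless a ratio of FPKM is named. Of all genes tested, 56.6% passed in this comparison, of which 34% rose and 22.6% fell as shares of all genes. The median log2 fold change was 0.48 over the 10 genes and 0.062 over all genes. The 10 genes were chosen with earlier results of these data known. The shares of all genes are therefore a background and no test of the 10 genes as a set. With median-ratio size factors the split over all genes moved from 3938 higher and 2621 lower to 3087 higher and 3449 lower, 6 of the 10 genes still rose, and Keap1 then passed as lower (-0.18, adjusted p = 0.0361).

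All 10 genes fell from P5 to P10. Of all genes tested, 30.5% fell and 31% rose. The median log2 fold change was -0.76 over the 10 genes and 0.0055 over all genes. Here too, the choice of the genes with earlier results known makes this no test of the set. This comparison and the one before share the P5 libraries, so a high P5 value enters both. The comparison of P10 with P0 does not use P5. In it, 6 of the 10 genes were lower at P10, 1 was higher and 3 did not pass the test, against 31.3% of all genes lower and 41% higher.

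**Figure D1:**
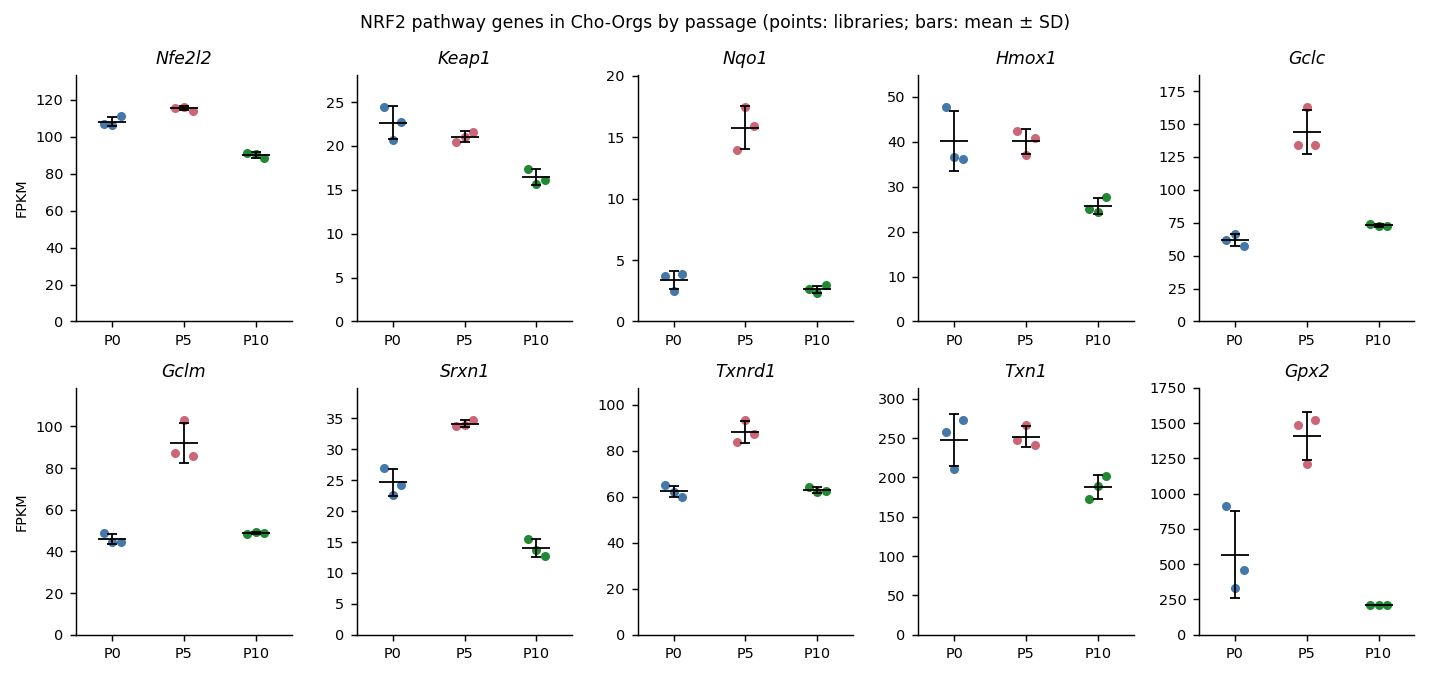
FPKM of each of the 10 genes (vertical axes from 0, one scale per gene) in Cho-Orgs at P0, P5 and P10; points are the 3 libraries of a passage and bars the mean ± SD. Nfe2l2, Nqo1, Gclc, Gclm, Srxn1, Txnrd1 and Gpx2 had all P5 libraries above all P0 and P10 libraries, and each of the 10 genes had all P10 libraries below all P5 libraries. Most genes also had passages that did not overlap, in either direction. The shares of all genes tested were 61.5% for P5 against P0, 74.2% for P10 against P5 and 75.1% for P10 against P0. The share of all genes with P5 above both other passages was not counted.

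Nfe2l2 (ENSMUSG00000015839, chr2:75675513-75704641, minus strand of GRCm38) encodes NRF2 itself. Its level in Cho-Orgs was 107, 106 and 111 FPKM at P0, 116, 116 and 114 FPKM at P5, and 91.0, 90.9 and 88.4 FPKM at P10. The 3 passages did not overlap, and P10 was the lowest. The rise to P5 had a log2 fold change of 0.092 ± 0.040 (SE) and did not pass the test (adjusted p = 0.0763). It passed when every gene above 0 was tested (adjusted p = 0.031) and after rescaling to TPM (adjusted p = 0.0202). The fall from P5 to P10 was -0.35 ± 0.040 (adjusted p = 5.27e-05), and P10 was also lower than P0 by -0.26 ± 0.040 (adjusted p = 0.000220).

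Keap1 (ENSMUSG00000003308, chr9:21229730-21239361, minus strand) encodes the repressor that presents NRF2 for degradation. It had 24.5, 20.7 and 22.7 FPKM at P0, 20.4, 21.1 and 21.6 FPKM at P5, and 17.4, 15.7 and 16.1 FPKM at P10. P0 and P5 overlapped, and all P10 libraries were below both. The log2 fold change from P0 to P5 was -0.098 ± 0.067 (adjusted p = 0.235), but with median-ratio size factors (-0.18, adjusted p = 0.0361) or without P0 replicate 2 (-0.16, adjusted p = 0.0474) it passed the threshold. Between P5 and P10 Keap1 fell by 0.34 ± 0.067 (adjusted p = 0.00155). The mean ratio of Nfe2l2 to Keap1 FPKM over the 3 libraries of a passage was 4.80 ± 0.389 (SD) in P0, 5.49 ± 0.196 in P5 and 5.50 ± 0.291 in P10 libraries.

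Nqo1 (ENSMUSG00000003849, chr8:107388225-107403206, minus strand) encodes the quinone reductase most often used as a readout of NRF2. It had 3.72, 2.50 and 3.83 FPKM at P0, 13.96, 17.5 and 15.9 FPKM at P5, and 2.61, 2.35 and 2.93 FPKM at P10. All P5 libraries were above the other libraries, and P0 and P10 overlapped. Nqo1 rose by 1.96 ± 0.129 to P5 (adjusted p = 1.73e-06) and fell by 2.21 ± 0.129 to P10 (adjusted p = 7.77e-07). P10 against P0 gave -0.25 with a 95% interval of -0.54 to 0.040 (adjusted p = 0.108). Without P0 replicate 2 it was -0.40 and passed (adjusted p = 0.00454). Even at P5, Nqo1 ranked only 3546 to 4279 among the genes of a library.

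Gclc (ENSMUSG00000032350, chr9:77754535-77794485, plus strand) and Gclm (ENSMUSG00000028124, chr3:122245557-122270732, plus strand) encode the catalytic and the modifier subunit of glutamate-cysteine ligase, which catalyses the first step of glutathione synthesis. Gclc had 62.2, 66.5 and 57.5 FPKM at P0, 134, 163 and 134 FPKM at P5, and 74.2, 72.7 and 72.4 FPKM at P10. Gclm had 49.0, 44.6 and 44.4 FPKM at P0, 87.4, 103 and 86.0 FPKM at P5, and 48.6, 49.3 and 48.8 FPKM at P10. In both genes the P5 libraries stood apart above the others, and replicate 2 was the highest of them. Gclc rose by 1.20 ± 0.081 (adjusted p = 2.10e-06) and Gclm by 0.98 ± 0.072 (adjusted p = 3.30e-06) to P5. By P10 Gclc fell by 0.96 ± 0.081 (adjusted p = 7.73e-06) and Gclm fell by 0.90 ± 0.072 (adjusted p = 5.67e-06).

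Gclc was the single member called higher at P10 than at P0, by 0.23 ± 0.081 (adjusted p = 0.0246). This call was lost when every gene above 0 was tested (adjusted p = 0.0531), with median-ratio size factors (0.15, adjusted p = 0.124), without P0 replicate 3 (0.18, adjusted p = 0.0888), and without P10 replicate 1 (0.22, adjusted p = 0.0682), replicate 2 (0.24, adjusted p = 0.0568) or replicate 3 (0.24, adjusted p = 0.0532). Gclm gave 0.089 with an interval of -0.072 to 0.25 (adjusted p = 0.288). The ratio of Gclc to Gclm FPKM was 1.35 ± 0.121 (SD) in P0, 1.56 ± 0.0244 in P5 and 1.49 ± 0.0278 in P10 libraries, 3 of each.

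Txn1 (ENSMUSG00000028367, chr4:57943373-57956411, minus strand) encodes thioredoxin, Txnrd1 (ENSMUSG00000020250, chr10:82833951-82897712, plus strand) the cytosolic enzyme that reduces it with NADPH, and Srxn1 (ENSMUSG00000032802, chr2:152105516-152111376, plus strand) sulfiredoxin, which repairs overoxidised peroxiredoxins. Txnrd1 had 65.0, 61.8 and 60.0 FPKM at P0, 83.7, 93.3 and 87.2 FPKM at P5, and 64.3, 61.9 and 62.6 FPKM at P10. Its P5 libraries were the highest, and P0 and P10 overlapped. It rose by 0.49 ± 0.053 (adjusted p = 4.33e-05) and fell by 0.48 ± 0.053 (adjusted p = 4.68e-05), and P10 minus P0 was 0.016 with an interval of -0.10 to 0.13.

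Srxn1 had 27.0, 22.6 and 24.3 FPKM at P0, 33.8, 34.0 and 34.7 FPKM at P5, and 15.5, 13.8 and 12.7 FPKM at P10. The 3 passages did not overlap, with P10 the lowest. It rose by 0.46 ± 0.079 to P5 (adjusted p = 0.000853), fell by 1.23 ± 0.079 to P10 (adjusted p = 1.43e-06) and was lower at P10 than at P0 by -0.77 ± 0.079 (adjusted p = 1.28e-05). Txn1 had 258, 210 and 273 FPKM at P0, 247, 267 and 241 FPKM at P5, and 172, 189 and 202 FPKM at P10. Its P0 and P5 libraries overlapped, and P10 was below both. Txn1 changed by 0.033 with an interval of -0.18 to 0.25 to P5 (adjusted p = 0.787) and fell by 0.42 ± 0.097 to P10 (adjusted p = 0.00395).

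Hmox1 (ENSMUSG00000005413, chr8:75093621-75100589, plus strand) encodes haem oxygenase 1, which opens the haem ring and is also driven by haem through the repressor BACH1. It had 47.8, 36.5 and 36.3 FPKM at P0, 42.4, 37.0 and 40.9 FPKM at P5, and 24.96, 24.3 and 27.7 FPKM at P10. P0 and P5 overlapped, with P0 replicate 1 the highest of all, and P10 was below both. The log2 fold change from P0 to P5 was 0.0071 with an interval of -0.23 to 0.24 (adjusted p = 0.959). Hmox1 fell by 0.62 ± 0.105 from P5 to P10 (adjusted p = 0.000609).

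Gpx2 (ENSMUSG00000042808, chr12:76792333-76795554, minus strand) encodes the glutathione peroxidase of the gut lining and other epithelia. It had 916, 334 and 456 FPKM at P0, 1488, 1213 and 1522 FPKM at P5, and 212, 211 and 210 FPKM at P10. The passages did not overlap, and P0 replicate 1 lay far above the other P0 libraries. At P5 Gpx2 ranked 25 to 34 among all genes of a library, and at P10 it ranked 236 to 243. It rose by 1.43 ± 0.288 (adjusted p = 0.00210), fell by 2.73 ± 0.288 (adjusted p = 3.38e-05) and was lower at P10 than at P0 by -1.29 ± 0.288 (adjusted p = 0.00248). Without P0 replicate 1 the rise was 1.84 and the difference between P10 and P0 was -0.89, and all of these calls stood.

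**Figure D2:**
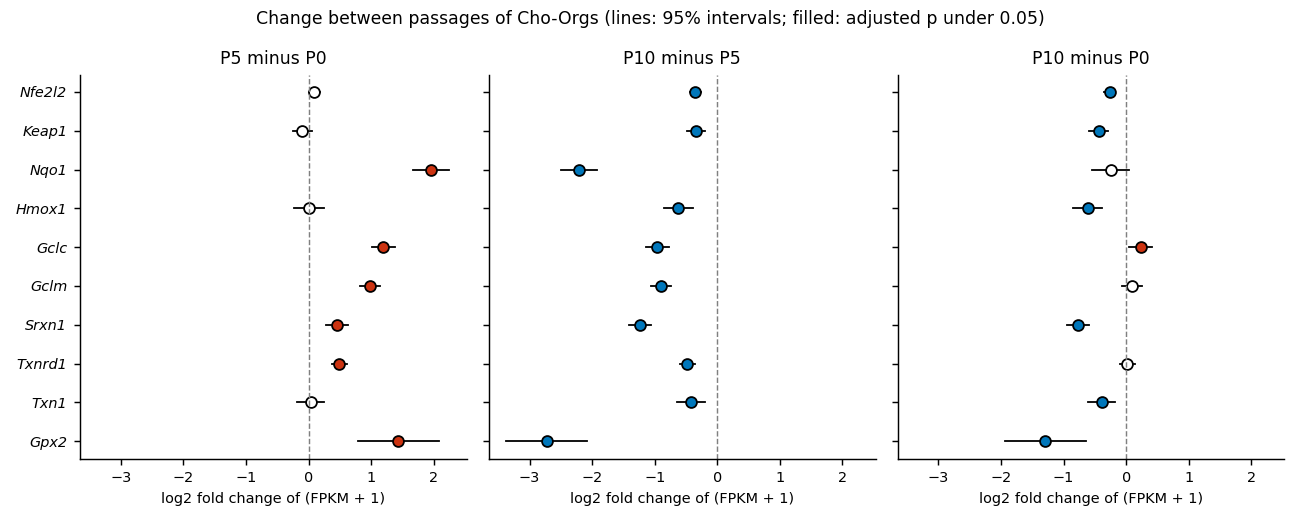
Log2 fold change of (FPKM + 1) between passages of Cho-Orgs for the 10 genes (horizontal axis), with 95% intervals from limma; filled points passed the adjusted threshold, red higher and blue lower. In the middle panel (P10 minus P5) all 10 points are blue, from -2.73 for Gpx2 to -0.34 for Keap1, while in the left panel (P5 minus P0) 6 points are red.

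Other things moved with passage in these libraries. The summed hepatocyte markers fell as given above, and the 9 cholangiocyte markers summed to 5141 to 6553 FPKM at P0, 3548 to 3683 FPKM at P5 and 3390 to 3419 FPKM at P10. The 8 proliferation markers summed to 208 to 312, 105 to 115 and 18.3 to 19.3 FPKM. The 11 macrophage markers summed to 43.8 to 49.5, 72.1 to 77.3 and 10.1 to 10.5 FPKM, of which at P5 and P10 only Cd68 reached 1 FPKM, while Clec4f, Vsig4, Marco, Lyz2, C1qa, C1qb and C1qc were at 0. The part of these differences in the changes of the 10 genes was not tested.

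The other genes of the pathway were followed as 7 lists, chosen, like the 10 genes, with earlier results of these data known. In the plot of the pathway lists, the changes of the 10 genes stand beside those of the lists. The counts of each list are to be read beside the shares of all genes tested, of which 34% rose and 22.6% fell from P0 to P5, 31% rose and 30.5% fell from P5 to P10, and 41% were higher and 31.3% lower at P10 than at P0. Among the regulators and partners of NRF2, 3 of 10 rose, 1 fell and 6 did not pass from P0 to P5. The small MAF genes Maff (26.7 to 51.5 FPKM, 0.94 ± 0.112) and Mafg (6.49 to 12.5 FPKM, 0.85 ± 0.070) and the NRF2 relative Nfe2l1 (54.5 to 75.8 FPKM, 0.47 ± 0.055) rose, and Rbx1, a subunit of the KEAP1 ligase, fell by 0.28 ± 0.060. From P5 to P10, 6 of this list rose and 1 fell. Sqstm1, whose product p62 binds KEAP1, rose from 52.0 to 151 FPKM (1.52 ± 0.045, adjusted p = 1.96e-08), Mafg by 0.55 ± 0.070 and Mafk by 0.43 ± 0.063, while Maff fell by 0.97 ± 0.112. Between P0 and P10, 5 were higher, led by Sqstm1 (1.61), Mafg (1.40) and Nfe2l1 (0.71), and Rbx1 (-0.35) and Bach1 (-0.29), the haem-sensing repressor, were lower.

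Among 20 genes of glutathione synthesis, recycling and conjugation, 8 rose and 5 fell from P0 to P5. Slc7a11, the cystine importer that feeds glutathione synthesis, rose most, from 4.92 ± 2.27 to 33.7 ± 0.991 FPKM (SD, n = 3), with a log2 fold change of 2.62 ± 0.205 (adjusted p = 5.28e-06). The export pumps Abcc1 (0.97 ± 0.071) and Abcc4 (0.76 ± 0.093) also rose, and Abcc2, the canalicular pump of hepatocytes, fell by 3.51 ± 0.099 from 11.6 to 0.102 FPKM. Ggt1, which splits extracellular glutathione, fell by 0.98 ± 0.106, and Gpx3 fell by 0.63 ± 0.225. By P10, 10 had fallen from their P5 level and 1, Abcc4 (0.48 ± 0.093), had risen. The largest falls were those of Gstm3 (-2.04), Gpx3 (-1.83) and Ggt1 (-1.14). Slc7a11 stayed high at 44.9 ± 0.361 FPKM at P10 (0.41 against P5, adjusted p = 0.111), and against P0 it was higher by 3.02 ± 0.205. In that comparison 6 of the 20 genes were higher, among them Abcc4 (1.24) and Abcc1 (0.87), and 14 lower, with the largest differences for Abcc2 (-3.61), Gpx3 (-2.46) and Ggt1 (-2.12).

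Thioredoxin and peroxiredoxin genes were split from P0 to P5, with 1 of 10 higher and 5 lower. Prdx6 rose by 0.55 ± 0.062, and Prdx4 (-0.79), Prdx2 (-0.61) and Txnrd2 (-0.42) fell. After P5, 2 rose to P10, Txnrd3 (0.45) and Txn2 (0.24), and 4 fell, led by Prdx4 (-1.52), Prdx6 (-0.68) and Prdx1 (-0.61). At P10 against P0, Txnrd3 (0.56) and Txnip (0.32) were higher and 5 were lower, led by Prdx4 (-2.31), Prdx2 (-1.07) and Txnrd2 (-0.58).

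Of 6 enzymes that make NADPH, Tkt (354 to 542 FPKM, 0.61 ± 0.060) and Me1 (0.19 ± 0.051) rose to P5, and none fell. Between P5 and P10, 4 fell, led by Tkt (-1.22), G6pdx (-0.50) and Idh1 (-0.29). At P10 against P0, Me1 was higher (0.18) and Tkt lower (-0.61). Of 7 haem and ferritin genes, 3 rose and 3 fell to P5. Ftl1, the ferritin light chain, rose from 2569 to 3504 FPKM (0.45 ± 0.069), as did the haem transporter Slc48a1 (0.32), and Fech (-0.36), Blvra (-0.28) and the ferritin heavy chain Fth1 (-0.26) fell. At P10, 5 were below P5 and none above, with Ftl1 at 1005 FPKM (-1.80 ± 0.069), Blvrb (-0.43) and Blvra (-0.36) the largest. Against P0, 5 were lower at P10, led by Ftl1 (-1.35), Fech (-0.67) and Blvra (-0.65).

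Of 10 further detoxification genes linked to NRF2, 8 rose and 1 fell from P0 to P5. Aldh3a1 (0.511 to 2.19 FPKM, 1.05 ± 0.165), the carbonyl reductase Cbr3 (31.0 to 56.0 FPKM, 0.84 ± 0.122) and Aox1 (0.75 ± 0.104) rose most. Osgin1, an oxidative stress-induced growth inhibitor, was the exception, and fell from 71.4 ± 4.05 to 35.9 ± 1.78 FPKM (-0.97 ± 0.056, adjusted p = 6.74e-07). Of the same genes 5 fell from P5 to P10, led by Cbr3 (-1.74), Aox1 (-1.35) and Cbr1 (-1.26). Osgin1 again went the other way, to 70.5 ± 1.09 FPKM (0.96 ± 0.056, adjusted p = 7.52e-07), and Akr1b3 rose by 0.72 ± 0.075. At P10 against P0, Akr1b3 (1.05), Ephx1 (0.45) and Akr1b8 (0.23) were higher, and Cbr1 (-0.96), Cbr3 (-0.90) and Aox1 (-0.61) were lower. The superoxide dismutases and catalase did not rise to P5: 2 of 4 fell, Cat (-0.70) and Sod2 (-0.26). All 4 fell from P5 to P10, led by Sod3 (67.0 to 7.97 FPKM, -2.92 ± 0.288), Cat (-0.76) and Sod1 (-0.49), and all 4 were lower at P10 than at P0, led by Sod3 (-2.84), Cat (-1.46) and Sod2 (-0.47).

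**Figure D3:**
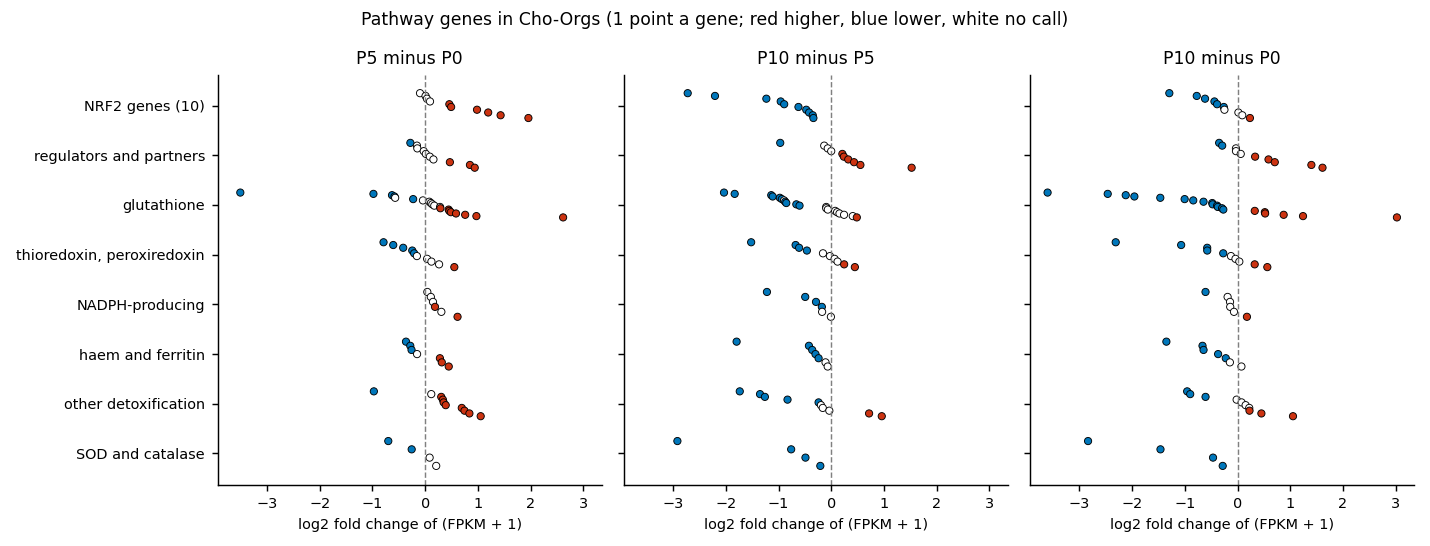
Log2 fold change of (FPKM + 1) between passages of Cho-Orgs (horizontal axis) for the 10 NRF2 genes in the top row and for 7 pathway lists below, 1 point a gene; red points were higher and blue points lower by limma at the adjusted threshold, and white points had no call. Regulators and partners are mostly red from P5 to P10, with Sqstm1 at 1.52, while the 4 superoxide dismutase and catalase genes are all blue.

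For 4 of the members, the 3 genes of most alike pattern over the 9 Cho-Orgs libraries were named by Pearson's r of log2(FPKM + 1). For Nfe2l2 they were Pkdcc (r = 0.997), Kdm3a (0.997) and Trmt2b (0.995), and for Nqo1 Ptbp3 (0.993), 9130008F23Rik (0.990) and Noxo1 (0.988). For Hmox1 they were Sem1 (0.982), Chrna1os (0.979) and Zc3hav1 (0.979), and for Gpx2 Hnrnpc (0.992), Flrt2 (0.990) and Ndnf (0.987). The 9 libraries fall into 3 passages, so a gene that differs between passages in the same order reaches a high r.

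Between the libraries labelled Pri-Hep and Hep-Orgs, and between passages of Hep-Orgs, no member passed the adjusted threshold. Of the 10986 genes tested by limma, 9 were members. Nqo1 was under 1 FPKM in all 12 libraries and was not tested. In each of 7 comparisons 0 of 9 members passed, and by limma-voom on the recovered fragments also 0. The share of all genes called was 0% for all Hep-Orgs, 0.0091% for P1, 0.0091% for P5 and 0% for P10 against Pri-Hep, 0% for P5 and for P10 against P1, and 0.0273% (0.0182% higher and 0.0091% lower) for P10 against P5. The difference of all Hep-Orgs from Pri-Hep was 0.071 for Hmox1, with a 95% interval of -0.080 to 0.22. Leaving out each library in turn gave 0.032 to 0.093, with the lowest value without P5 replicate 1.

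Nfe2l2 had 94.8, 98.1 and 95.8 FPKM in Pri-Hep, 92.8, 94.8 and 98.9 FPKM at P1, 94.1, 93.8 and 95.9 FPKM at P5, and 99.9, 98.5 and 98.7 FPKM at P10. All P10 libraries were above all P5 and all Pri-Hep libraries, by a log2 fold change of 0.066 ± 0.024 (adjusted p = 0.318) and 0.041 ± 0.024 (adjusted p = 0.782). Txn1 had 88.7, 89.5 and 92.4 FPKM in Pri-Hep, 93.5, 93.6 and 98.3 FPKM at P1, 97.1, 93.7 and 94.4 FPKM at P5, and 91.9, 86.0 and 91.5 FPKM at P10. The P1 and P5 libraries were all above those of Pri-Hep and of P10. Their differences from Pri-Hep were 0.076 ± 0.030 (adjusted p = 0.526) and 0.075 ± 0.030 (adjusted p = 0.413), and P10 minus P5 was -0.082 ± 0.030 (adjusted p = 0.317).

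The counts of small differences stand beside those of all genes. Groups did not overlap for 2 of the 9 members at P1 against Pri-Hep (Txn1 and Srxn1) beside 13.5% of all genes, for 1 at P5 (Txn1) beside 15.1%, for 3 at P10 (Nfe2l2, Gclm and Srxn1) beside 10.9%, for 1 at P10 against P1 (Txn1) beside 16.3%, for 2 at P10 against P5 (Nfe2l2 and Txn1) beside 17.1%, and for none at P5 against P1 beside 10.3%. An unadjusted p under 0.05 was reached by 0 members for all Hep-Orgs against Pri-Hep beside 8.79% of all genes, by 2 at P1 beside 8.29%, by 1 at P5 beside 10.8% and by 0 at P10 beside 6.64%. It was reached by 0 at P5 against P1 beside 3.97%, by 1 at P10 against P1 beside 8.98% and by 3 at P10 against P5 (Nfe2l2, Gclm and Txn1) beside 11.5%.

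The remaining members kept narrow ranges over the 12 libraries. Gclc lay between 38.0 and 41.2 FPKM, Gpx2 between 34.8 and 39.1, Txnrd1 between 25.6 and 26.8, Gclm between 22.4 and 25.05, Srxn1 between 10.2 and 11.5, and Keap1 between 8.36 and 9.81 FPKM. Hmox1 lay between 9.03 and 12.4 FPKM, with P5 replicate 1 the highest. Nqo1 was near the limit of detection, at 0.751, 0.461 and 0.287 FPKM in Pri-Hep, 0.402, 0.360 and 0.620 FPKM at P1, 0.236, 0.365 and 0.239 FPKM at P5, and 0.642, 0.513 and 0.250 FPKM at P10, which are 7 to 21 fragments each. The groups overlapped, and the level was not resolved between them at this depth. The order by mean FPKM over the 12 libraries was Nfe2l2 (96.3 ± 2.37, SD), Txn1 (92.5 ± 3.43), Gclc (39.8 ± 0.915), Gpx2 (36.9 ± 1.38), Txnrd1 (26.4 ± 0.438), Gclm (23.9 ± 0.776), Srxn1 (10.6 ± 0.351), Hmox1 (9.96 ± 0.933), Keap1 (9.24 ± 0.424) and Nqo1 (0.427 ± 0.173). Nfe2l2 and Txn1, Gclc and Gpx2, and Srxn1, Hmox1 and Keap1 overlapped with their neighbours in this order.

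**Figure D4:**
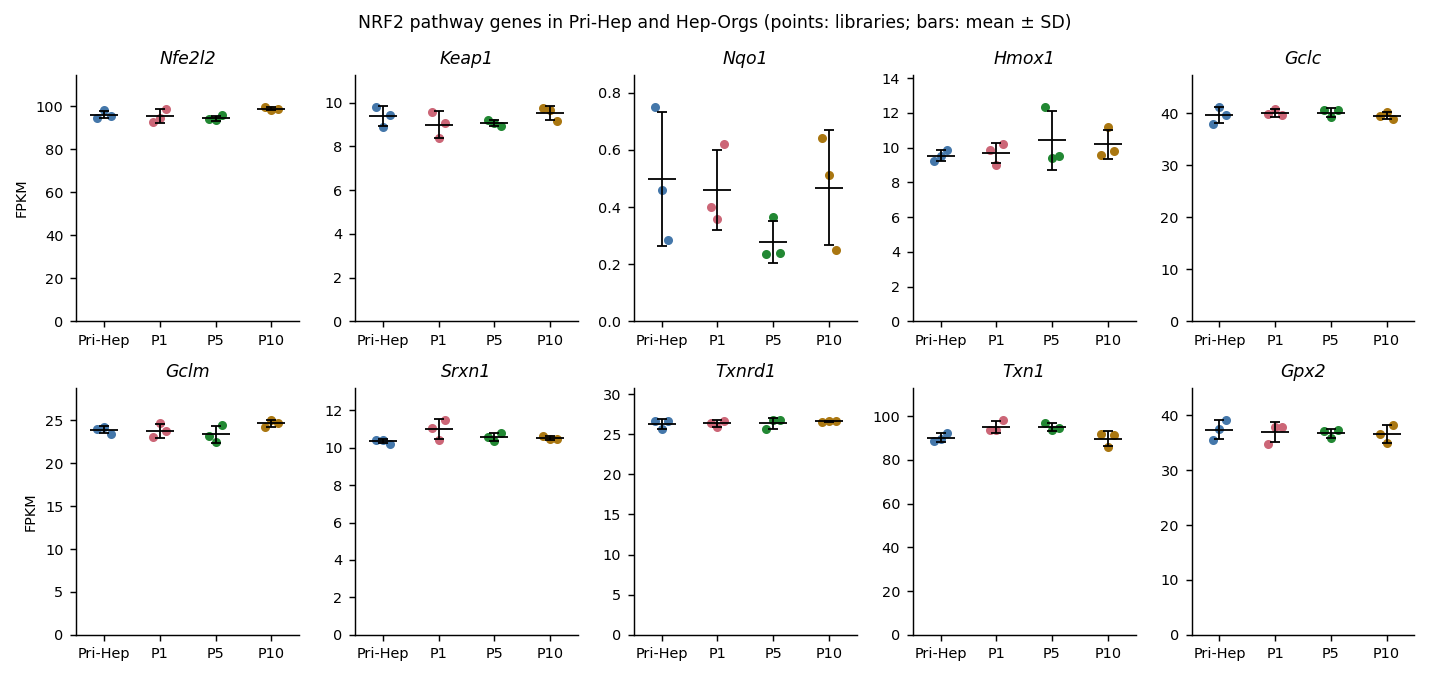
FPKM of each of the 10 genes (vertical axes from 0, one scale per gene) in Pri-Hep and in Hep-Orgs at P1, P5 and P10; points are the 3 libraries of a group and bars the mean ± SD. Nfe2l2 stays between 92.8 and 99.9 FPKM and Nqo1 under 1 FPKM in all 12 libraries.

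Of the pathway lists, no gene passed the adjusted threshold for all Hep-Orgs against Pri-Hep by limma, and the list medians lay between -0.013 and 0.027. No pathway gene passed in the other 6 comparisons of this table.

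Set side by side with the Cho-Orgs table, which was normalized separately and so allows no test, Nqo1 was 0.236 to 0.751 FPKM in the first table and 2.35 to 17.5 FPKM in the Cho-Orgs. Gpx2 was 34.8 to 39.1 FPKM against 210 to 1522 FPKM. Nfe2l2 was 92.8 to 99.9 FPKM against 88.4 to 116 FPKM. The ratio of Nfe2l2 to Keap1 FPKM does not depend on the scaling of a library, but it depends on the gene lengths used for each table. It was 9.67 to 11.3 in the first table and 4.38 to 5.80 in the Cho-Orgs.

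In the Smart-Seq organoids, Hmox1 and Gpx2 differed most between the morphologies, in opposite directions. With 1 library each there is no replicate check and no test. Intervals below cover counting error only, from approximate fragments. Their width is that of a ratio of fragments, placed around the log2 ratio of FPKM + 1. The pseudocount shifts that ratio at low FPKM, so no interval is given there. Past 2-fold were 2 of the 10 genes for grape-like against round-like, 1 for intermediate against round-like and 2 for grape-like against intermediate, beside 21.8%, 6.39% and 16.9% of the 12595 genes at 1 FPKM or more.

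Hmox1 had 251.9 FPKM in grape-like, 99.9 FPKM in intermediate and 52.6 FPKM in round-like organoids. Grape-like against round-like gave a log2 ratio of 2.24 (interval 2.19 to 2.29) and grape-like against intermediate 1.33 (1.29 to 1.36). Intermediate against round-like gave 0.91, and 1.06 with median-ratio size factors, which is past 2-fold. The macrophage markers followed the same order, with 11 of 11 past 2-fold in grape-like against round-like organoids and sums of 10918, 3150 and 1749 FPKM, all 11 above 1 FPKM in each library. Among them Lyz2 had 5942, 1792 and 887 FPKM, Marco 331, 130 and 93.1 FPKM, and Clec4f 79.3, 13.4 and 10.3 FPKM. This order was not particular to macrophage markers. The stellate markers summed to 1335, 324 and 284 FPKM and the sinusoidal endothelial markers to 72.6, 30.7 and 12.8 FPKM. The blood markers summed to 32.8, 11.4 and 5.35 FPKM, with 4, 4 and 5 of the 6 under 1 FPKM. The hepatocyte markers summed to 6102, 10362 and 1410 FPKM. The part of any of these cell types in the level of Hmox1 was not tested.

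Gpx2 had 3.46 FPKM in grape-like, 51.5 FPKM in intermediate and 228 FPKM in round-like organoids. Grape-like against round-like gave -5.68, intermediate against round-like -2.13 (-2.16 to -2.09) and grape-like against intermediate -3.56. As ratios of FPKM, without the pseudocount, Gpx2 was 65.9-fold lower in grape-like than in round-like and 14.9-fold lower than in intermediate organoids. The cholangiocyte markers summed to 878, 3461 and 2857 FPKM, and this sum, unlike Gpx2, was highest in intermediate organoids. Single markers can differ from the sum. For Krt7, Krt19 and Sox9, the study reports lower levels in grape-like than in round-like organoids, with intermediate organoids between, which is the order of Gpx2. The part of the cholangiocyte markers in the level of Gpx2 was not tested.

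The other 8 genes stayed within 2-fold. In the same order of shapes, Nfe2l2 was at 52.0, 69.0 and 96.2 FPKM and Keap1 at 16.03, 18.5 and 19.9 FPKM. Gclm was at 16.6, 25.9 and 32.8 FPKM, close to 2-fold between the ends (-0.94, interval -0.99 to -0.88). Gclc had 22.7, 40.1 and 38.0 FPKM, so that grape-like organoids were the lowest for both subunits of the ligase. Txnrd1 had 54.1, 56.7 and 80.6 FPKM, Txn1 228, 261 and 311 FPKM, and Srxn1 17.3, 13.9 and 17.4 FPKM. Nqo1 was low in all 3, at 1.53, 1.36 and 0.829 FPKM, from about 94.6, 85.6 and 52.1 fragments. Grape-like against round-like gave a log2 ratio of 0.47 with the pseudocount and a ratio of FPKM of 1.84 without it. The median log2 ratio of all genes in this comparison was -0.13, and with median-ratio size factors -0.060.

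**Figure D5:**
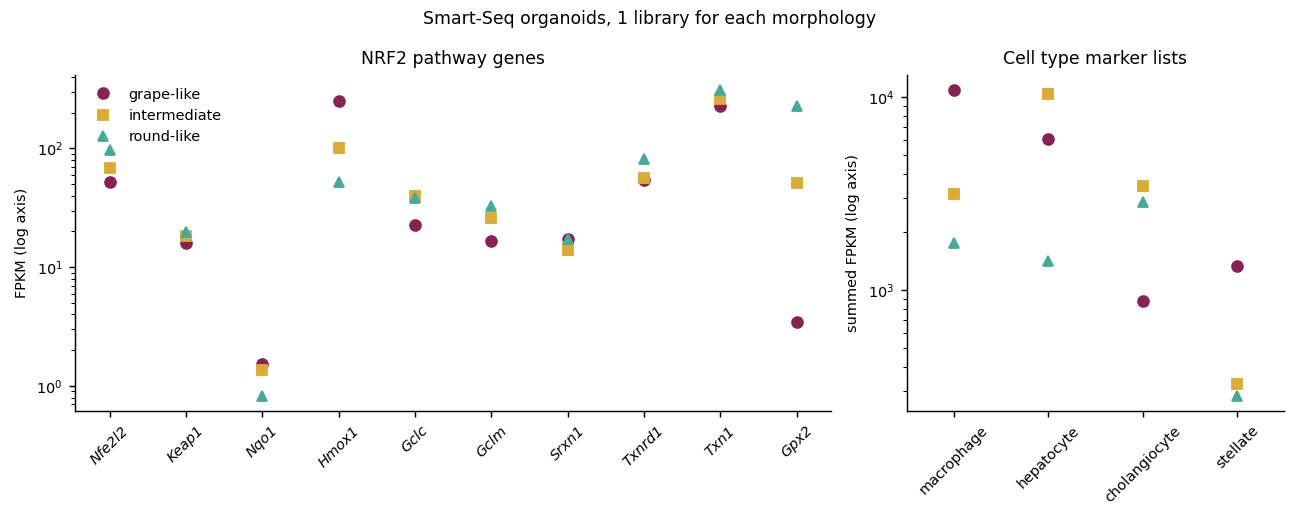
Left, FPKM of the 10 genes (log axis) in the 3 Smart-Seq libraries, 1 point a library. Right, summed FPKM (log axis) of 4 cell type marker lists in the same libraries. Hmox1 is highest in grape-like organoids (251.9 FPKM), where the macrophage (10918 FPKM) and stellate (1335 FPKM) sums are also highest. Gpx2 is lowest in grape-like organoids (3.46 FPKM).

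The pathway lists are given beside all genes at 1 FPKM or more, of which 12.9% were past 2-fold higher and 8.82% lower in grape-like than in round-like organoids, 3.85% higher and 2.54% lower in intermediate than in round-like, and 9.71% higher and 7.15% lower in grape-like than in intermediate. The haem and ferritin genes had 4 of 7 past 2-fold higher in grape-like than in round-like organoids, with Blvra, which reduces biliverdin, at 125 against 34.5 FPKM and Blvrb at 81.7 against 24.2 FPKM. Blvra (1.18) and Blvrb (1.14) also led in grape-like against intermediate. Of the 20 glutathione genes, 3 were past 2-fold higher and 8 lower in grape-like than in round-like organoids. Abcc2 (19.9 against 2.94 FPKM) and Gstm3 (15.0 against 3.65 FPKM) had the highest log2 ratios of FPKM + 1, and Gsta1 (0.174 against 4.53 FPKM) and Gsta4 (76.6 against 336 FPKM) the lowest on that scale. Gsta1 and Gsta4 were also the lowest on it against intermediate organoids (14.2 and 390 FPKM). Intermediate against round-like gave 5 higher, with Abcc2 at 36.1 FPKM and Gstm3 at 15.9 FPKM, and 2 lower, Slc7a11 (0.597 against 3.46 FPKM) and Ggt1 (0.907 against 3.28 FPKM).

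Of the NADPH-producing enzymes, Me1 (21.3 against 73.5 FPKM) and Tkt (75.2 against 233 FPKM) were lower in grape-like than in round-like organoids, and Me1 also against intermediate (-1.16). Prdx6 was lower in grape-like than in round-like organoids (35.5 against 79.1 FPKM), and Txnip was higher in intermediate than in round-like organoids (223 against 104 FPKM). Of the detoxification genes, Aox1 was higher (6.81 against 1.45 FPKM) and Akr1b8 lower (21.3 against 53.8 FPKM) in grape-like than in round-like organoids. Osgin1 was highest in intermediate organoids, at 50.1 FPKM against 19.8 and 23.4 FPKM, and Aox1 passed 2-fold there too (1.01 against round-like). Sod3 was highest in grape-like organoids, at 15.4 FPKM against 3.997 and 3.62 FPKM. None of the 10 regulators and partners of NRF2 was past 2-fold in any of the 3 comparisons.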

How the data were processed

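Levels are FPKM, as deposited by the authors per gene and library, in 3 tables that were normalized separately and not fitted together. The submitters' processing notes name featureCounts 2.0.3 and mm10; the aligner is not given in the sources used here. In the Pri-Hep and Hep-Orgs table, median-ratio size factors computed from the values were 1.00 in all 12 libraries and differed by 8.8e-10 at most, so its libraries had already been scaled to each other in this way and rescaling them so changes nothing. The study's methods name a count model. Because the deposited tables hold FPKM, log2(FPKM + 1) was fitted by limma 3.58.1 in R 4.3.3 (two-sided, moderated variances with a trend), with all groups of a table in 1 fit. A gene entered when 3 or more libraries of its table reached 1 FPKM. P-values were adjusted by Benjamini-Hochberg over all genes tested (threshold 0.05). Smart-Seq libraries were compared as log2 ratios with a pseudocount of 1, over genes at 1 FPKM or more in at least 1 library. In the first table, FPKM times gene length gave whole fragments for 100% of values (within 0.05 of a whole number). In the other tables depth was estimated from low values and is approximate. Of the values used there, 33.3 to 38.2% in Cho-Orgs and 23.9 to 34.9% in Smart-Seq lay within 0.05 of a whole number.

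Same-numbered libraries come from 1 mouse according to one legend of the study. Their deviations from the group means correlated by -0.076 to 0.055 over 18 pairs in the first table and by -0.074 to 0.12 over 9 pairs in Cho-Orgs. Libraries of different number and group gave -0.089 to 0.093 over 36 pairs and -0.12 to 0.093 over 18 pairs. The replicate block was an alternative.

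The members and gene lists were chosen with earlier results of these data known. Named were all members, up to 3 rises and 3 falls per list in each Cho-Orgs comparison among called genes whose groups did not overlap, every called pathway gene in the first table, up to 2 per list and direction past 2-fold in Smart-Seq, and the 3 most alike genes of 4 members. Outside this rule, markers behind a sum and the change of Slc7a11 from P5 to P10 were named after their values were seen. The limma model was tested on simulated data with changes of 2-fold or more, so that test does not cover smaller changes. Python 3.11.15 was used for tables and figures.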

Additional observations from a re-analysis of the deposited data

Results flagged for a closer look

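Nfe2l2 was flagged because its P5 and P10 libraries did not overlap and stood in opposite order in the 2 kinds of organoid. Groups did not overlap in this comparison for 17.1% of all genes tested in Hep-Orgs and 74.2% in Cho-Orgs. All Hep-Orgs P10 libraries were above all P5 libraries, with a log2 fold change of 0.066, and all Cho-Orgs P10 libraries were below all P5 libraries, with -0.35. The difference between them was not tested, since the tables were normalized separately, and the change in Hep-Orgs did not pass the adjusted threshold by limma. No member had an outlying library among the 9 Hep-Orgs libraries by Dixon's criterion, which flags about 1 in 20 groups by chance. Groups of 3 libraries were not examined in this way.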

How the results depend on the processing

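The fits were repeated with a pseudocount of 0.1, for every gene above 0 or with a mean FPKM of at least 5, after rescaling to TPM or by median-ratio size factors, with a replicate block, without the variance trend, on only the groups compared, without each library, and, in the first table, by limma-voom on recovered fragments. Median-ratio scaling is no test of the first table, which already had it. Leaving out each library gave 6 to 7 called members for P5 minus P0, 10 for P10 minus P5 and 6 to 8 for P10 minus P0 in Cho-Orgs, and 0 in the 7 comparisons of the first table. With the replicate block these counts were 6, 10, 7 and 0, and no member's call changed. The number of members past 2-fold for intermediate against round-like organoids moved from 1 to 2 with median-ratio size factors. Beyond the changed calls given for Nfe2l2, Keap1, Nqo1 and Gclc, no member's call changed under these alternatives. The count of all genes called moved by over 1.5 times in the first table, where it is near 0: by limma-voom it was 12 for all Hep-Orgs, 30 for P1 and 39 for P5 against Pri-Hep, and 29 for P10 minus P1 and 28 for P10 minus P5, against 0, 1, 1, 0 and 3. The other fits of that table, for which these counts lay between 0 and 7, called no member. Rescaling to TPM put the median of all genes at 0.11 for P5 minus P0 and 0.10 for P10 minus P0 in Cho-Orgs, and at -0.19 for intermediate against round-like. With 3 libraries a group, small changes such as that of Nfe2l2 from P0 to P5 in Cho-Orgs are at the limit of what these data resolve, and the low counts of Nqo1 in the first table limit any comparison there.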
